A study of Mus musculus with 27 samples.

Results

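The genes described here build the machinery by which neurons release transmitter from synaptic vesicles: the synaptotagmins, syntaxins, VAMPs, SNAP-25 family, complexins, syntaxin binding proteins, synapsins, SV2 proteins, Rab3 and RIM proteins, Unc13a to Unc13d and Nsf. They were chosen by symbol alone, as family names followed by a family number and an optional letter, and 71 of the 18194 genes that had a probe set of their own on the array met the rule. Of these, 63 passed the filter on low signals that 13527 genes passed. The names Rab30 to Rab39 belong to another branch of the Rab family and were left out. Their signals were read in mouse medulloblastomas driven by the Hedgehog pathway and in cerebellar tissue without tumour, on 27 arrays. The probe sets of the array were matched to genes through the platform annotation, and all 71 symbols were found in RefSeq.

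Tumours came from mice in which Cre recombinase switched on SmoM2, an activated form of Smoothened, under 1 of 4 drivers, namely Math1-cre:SmoM2 in 3 tumours, Tlx3-cre:SmoM2 in 3, hGFAP-cre:SmoM2 in 6 and Olig2-tva-cre:SmoM2 in 7, and in the case of 2 tumours from Ptc1+/- mice, which lack a copy of the gene for the Hedgehog receptor Patched. The 6 non-tumour samples were cerebellum from Olig2-tva-cre:SmoM2 (2), hGFAP-cre:SmoM2 (1), Mxi1-cre:SmoM2 (2) and Ptc1+/- mice (1), so the non-tumour tissue carried SmoM2 or Ptc1 alleles too and held no wild-type sample. Math1 marks precursors of cerebellar granule neurons, while hGFAP and Olig2 drivers also reach broader progenitors. Ages were not given in the sources used here. The labels speak of biological replicates but name no animal, and every p-value therefore reflects only how far these samples lie apart.

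Vesicle fusion rests on the SNARE proteins. A VAMP on the vesicle zips together with a syntaxin and a SNAP-25 protein on the plasma membrane, Unc13 and RIM proteins prime vesicles at the active zone, complexins hold the assembled SNAREs, synaptotagmins sense calcium and trigger fusion, and Nsf takes the spent complex apart. Related syntaxins and VAMPs serve the endosome, the Golgi apparatus and the endoplasmic reticulum of every cell. In the cerebellum the granule neurons, which arise from the precursors that Hedgehog signalling keeps dividing, form very large numbers of such synapses once they have matured.

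Promoters of 4 members are shown because these genes stand for the main patterns below. Unc13c was the lowest member in tumours, and Stxbp6 and Stx1a were the highest. Syn1 held 2 of the motifs searched, the left part of the RE1 element and the cyclic AMP response element. Each sequence runs 5′ to 3′ on the strand of the gene, from 250 bases before the RefSeq start over the first 50 bases from it, in build GRCm38.p6, and capitals mark motif letters found on either strand. The letters searched were TTCAGCACC, the left part of the RE1 element bound by the neuronal repressor REST, TGACGTCA, the cyclic AMP response element, and GGGCGG, the GC box.
Unc13c, chr9:73968988-73969287, minus strand: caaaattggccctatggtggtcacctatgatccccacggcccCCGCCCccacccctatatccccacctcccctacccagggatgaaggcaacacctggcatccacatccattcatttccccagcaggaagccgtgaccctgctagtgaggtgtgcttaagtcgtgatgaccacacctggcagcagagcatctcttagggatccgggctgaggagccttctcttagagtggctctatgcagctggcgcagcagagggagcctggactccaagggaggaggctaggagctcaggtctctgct
Stxbp6, chr12:45074434-45074733, minus strand: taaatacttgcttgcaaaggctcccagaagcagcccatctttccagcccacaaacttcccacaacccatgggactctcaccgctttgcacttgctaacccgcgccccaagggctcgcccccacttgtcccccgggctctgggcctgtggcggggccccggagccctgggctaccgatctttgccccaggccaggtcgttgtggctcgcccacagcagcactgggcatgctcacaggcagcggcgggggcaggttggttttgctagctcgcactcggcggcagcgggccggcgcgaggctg
Stx1a, chr5:135023232-135023531, plus strand: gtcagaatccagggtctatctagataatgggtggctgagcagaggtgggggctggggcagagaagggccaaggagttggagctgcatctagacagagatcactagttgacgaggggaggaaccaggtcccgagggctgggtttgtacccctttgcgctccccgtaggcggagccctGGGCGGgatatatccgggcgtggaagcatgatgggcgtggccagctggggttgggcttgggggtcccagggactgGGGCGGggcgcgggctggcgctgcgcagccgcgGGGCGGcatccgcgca
Syn1, chrX:20920869-20921168, minus strand: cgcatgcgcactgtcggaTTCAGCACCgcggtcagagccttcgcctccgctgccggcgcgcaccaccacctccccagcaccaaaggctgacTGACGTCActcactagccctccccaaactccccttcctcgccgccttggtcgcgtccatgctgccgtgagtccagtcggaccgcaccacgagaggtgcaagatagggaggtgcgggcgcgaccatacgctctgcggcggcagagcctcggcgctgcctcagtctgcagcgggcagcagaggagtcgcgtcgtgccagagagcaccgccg
The Stx1a window held 3 GC boxes, the Unc13c window 1 and the Stxbp6 window none of the letters searched. The Syn1 window held 1 left RE1 part and 1 cyclic AMP response element. Over the 72 windows of 56 members in the RefSeq table, the left RE1 part occurred in 2 (Syn1 and Unc13a), against 0.371% of all 32851 promoter windows of that length. The cyclic AMP response element occurred in 2 (Stxbp3 and Syn1), against 1.79% of all windows. The GC box occurred in 47, or 65.3%, against 35.7% of all windows. No window held overlapping hits of different motifs in the sequences printed. A match is a description of these letters and not a binding site.

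Signals below are log2 values of MAS5 signal, an arbitrary brightness unit, after each array was scaled to the same trimmed mean. They are compared between samples for the same probe set and never between genes. Values under 3.37 were raised to that floor. The 7 dim arrays, with trimmed means under 85 before scaling, were 5 Olig2, 1 hGFAP and 1 Ptc1+/- tumour, while all non-tumour arrays lay between 117.9 and 161. The mean log2 ratio of 3 prime to 5 prime control probe sets, which rises with shortened RNA, was 1.667 to 1.881 on 2 Olig2, 2 hGFAP and 1 non-tumour array and -0.146 to 0.899 on the others. The number of arrays limits the precision of each value.

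Cell type markers differed between tumours and non-tumour tissue as well. All 8 markers of granule neuron precursors and dividing cells were higher in tumours, with a summed linear signal of 11300 to 23300 on the 21 tumour arrays, against 276 to 819 on the 6 non-tumour arrays. All 9 tested markers of mature granule neurons were lower, summing to 1910 to 7080 in tumours, against 18600 to 28500 in non-tumour tissue. All 7 tested Purkinje cell markers and all 6 tested markers of GABAergic interneurons were lower too. Purkinje markers summed to 174 to 3510 in tumours, against 21100 to 28700 in non-tumour tissue. GABAergic markers summed to 266 to 1820 in tumours, against 7590 to 9780 in non-tumour tissue. The Purkinje marker Slc1a6, a glutamate transporter, was at the floor on all 3 Math1 and both Ptc1+/- tumour arrays. Tumour group means of Slc1a6, Slc6a5, Slc32a1, Gad2 and Kcnj9 lay under the filter signal, as did non-tumour means of Atoh1, Mki67, Top2a and Insm1. The directions of these markers may have leaned on the filter and are a description.

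Among the other cell types, 6 of 8 markers of migrating young neurons were higher and 1 was lower, with sums of 8470 to 18400 in tumours, against 2630 to 3680 in non-tumour tissue. All 8 microglia and macrophage markers were higher, summing to 3270 to 10400 in tumours, against 1080 to 1580 in non-tumour tissue. All 6 tested oligodendrocyte markers were lower, as were 6 of 7 astrocyte and Bergmann glia markers, of which the other 1 was higher. Of 5 tested endothelial markers 2 were lower, and none of 4 choroid plexus or 3 tested blood markers passed the test. Tumour group means of Mog, Ermn and Tek lay under the filter signal, as did non-tumour means of Dcx, Dcc, Nhlh1, Aif1 and Cd68. The directions of these markers, too, may have leaned on the filter and are a description. The choroid plexus sum ran from 108 to 13500 in tumours, against 124 to 10200 in non-tumour tissue. The part of cell make-up in the results below was not tested, and in bulk tissue fewer cells of a type and less RNA per cell cannot be told apart.

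All tumours were set against non-tumour tissue with equal weight for the 5 tumour groups, which asks how the release machinery stands in Hedgehog tumours. Of the 63 members tested, 38 fell (60.3%, against 25.6% of all 13527 genes) and 6 rose (9.52%, against 26.8% of all genes) at a limma adjusted p under 0.05, and 19 did not pass. The median log2 difference of the members was -0.82, beside 0.02 over all genes. All 38 that fell had all 5 tumour group means below the non-tumour mean, and all 6 that rose had all 5 above. Of the 63 tested, 23 fell with every tumour array below every non-tumour array, beside 9.68% of all 13527 genes with such a gap. Only Stxbp6, 1 of the 63, rose with every tumour array above every non-tumour array, beside 8.14% of all 13527 genes. These shares of all genes count genes called or not.

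The count was 50 members (7 higher, 43 lower) without the 7 dim arrays, and 42 (7 higher, 35 lower) without the 5 arrays of high 3 prime to 5 prime ratio. The shares of all genes called in these fits are not given here. The filter kept 1 member, Syt3, through fewer than 3 tumour arrays, so its fall leaned on the filter, and it kept Stx11, Syt5, Syt8 and Unc13d through fewer than 3 non-tumour arrays. Of these 4 only Syt8 was called higher, and its rise, like the fall of Syt3, is given as a description. Without the filter, 39 of 71 members fell and 7 rose, against 19.9% and 20.1% of all genes. The 8 members left out were Cplx3, Cplx4, Rab3b, Stx19, Sv2c, Syt16, Syt6 and Vamp5. All but Syt6 were at the floor on at least 5 arrays, and of the 8 only Rab3b (-1.08) and Sv2c (-0.73) fell and Syt16 (0.59) rose in the unfiltered fit.

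**Figure D1:**
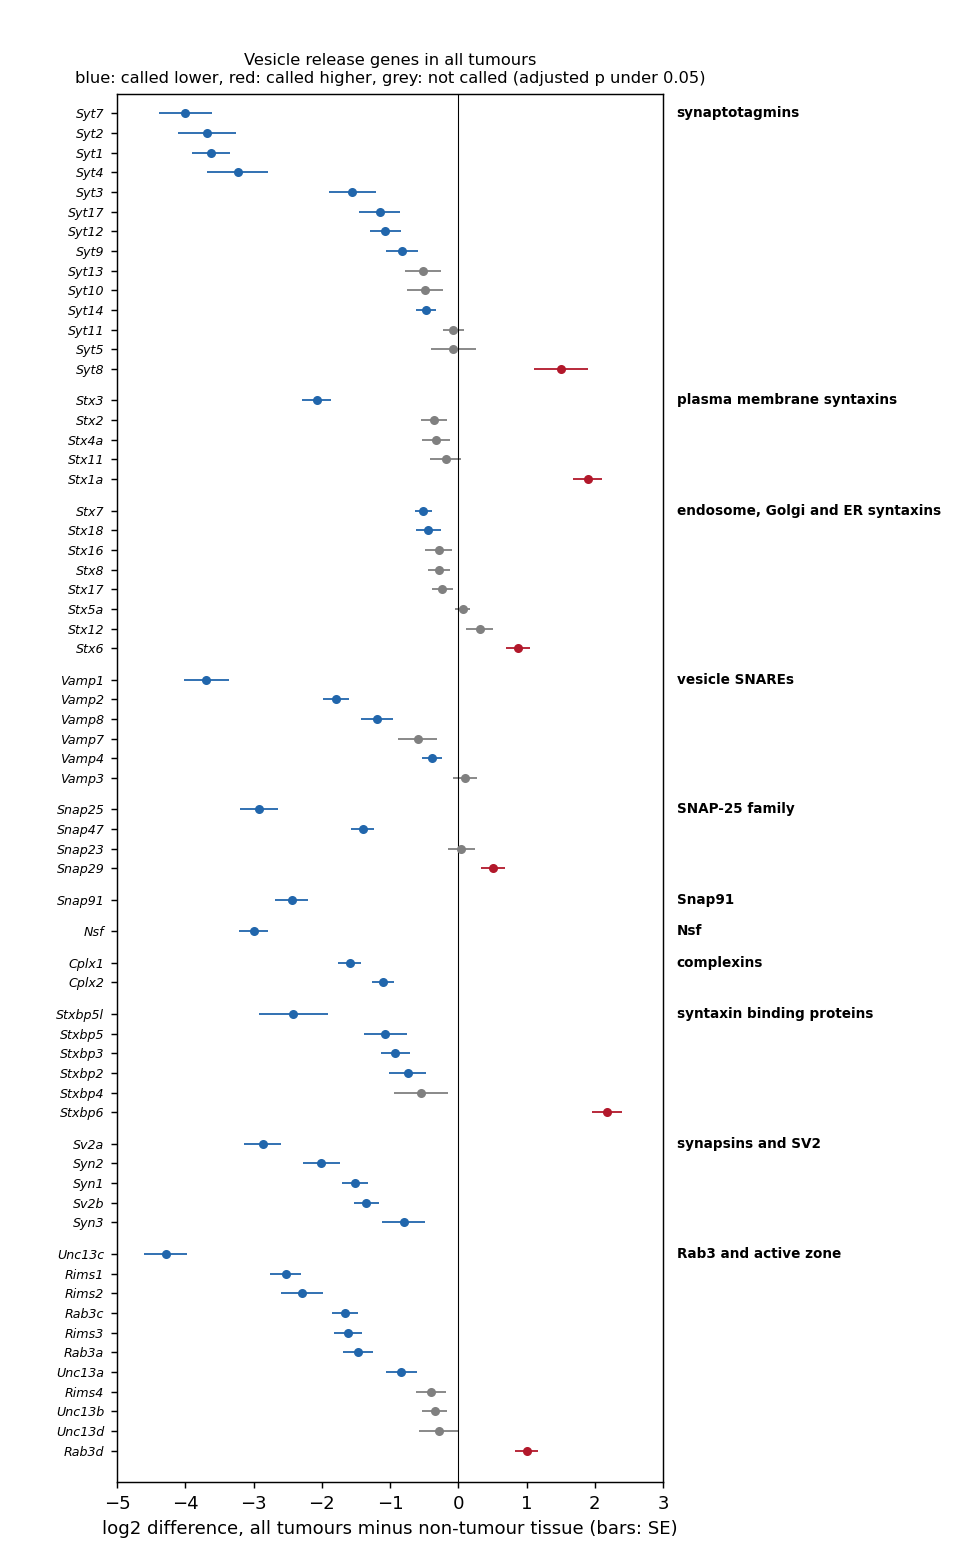
Log2 difference, all tumours minus non-tumour tissue, of the 63 tested members (points, with bars of the SE), grouped by role and coloured by the call at an adjusted p under 0.05. The 38 blue members called lower reach -4.29 at Unc13c, and the 6 red members called higher, found in 6 role groups, reach 2.17 at Stxbp6.

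Syt7, Syt2, Syt1 and Syt4 had the lowest differences among the synaptotagmins. Syt1, the sensor of synchronous release at many forebrain and hindbrain synapses, read 7.12, 7.46 and 6.77 in Math1 tumours, 7.98, 8.62 and 6.85 in Tlx3 tumours, 6.26 to 8.77 (median 6.90) in Olig2 tumours, 7.32 to 8.30 (median 7.79) in hGFAP tumours and 6.10 and 7.26 in Ptc1+/- tumours, against 10.48 to 11.13 (median 10.94) in non-tumour tissue. The highest tumour array was thus below the lowest non-tumour array. Its signal was 12.3-fold lower in tumours (log2 difference -3.62, SE 0.28, limma adjusted p = 8.16e-12). Syt2, the sensor that takes this place at many cerebellar and brainstem synapses, ranged from 3.39 to 7.22 (median 5.79) in tumours, against 8.70 to 9.65 (median 9.15) in non-tumour tissue. It was 12.9-fold lower (log2 difference -3.69, SE 0.43, adjusted p = 2.11e-08), with no overlap of arrays.

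Syt7, a slower sensor with high calcium affinity that serves asynchronous release, read 6.83, 7.17 and 6.97 in Math1 tumours, 7.09, 7.53 and 6.91 in Tlx3 tumours, 4.95 to 8.79 (median 5.76) in Olig2 tumours, 5.93 to 9.25 (median 7.49) in hGFAP tumours and 5.54 and 5.94 in Ptc1+/- tumours, against 10.16 to 11.03 (median 10.89) in non-tumour tissue. The groups did not overlap, but Olig2 and hGFAP tumours were spread widely. It was 16-fold lower in tumours (log2 difference -4.00, SE 0.39, adjusted p = 7e-10). Syt4, found on dense-core vesicles and poor at binding calcium, ranged from 4.60 to 8.72 (median 6.77) in tumours, against 9.53 to 10.46 (median 10.10) in non-tumour tissue, and fell by 3.23 on the log2 scale (SE 0.44, adjusted p = 4.44e-07). Both genes therefore showed tumour arrays far apart from each other and all of them below the non-tumour arrays.

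In all, 9 of the 14 tested synaptotagmins fell, 1 rose and 4 did not pass, against 25.6% of all genes lower and 26.8% higher. The other synaptotagmins that fell did so by less. Syt3, a high-affinity member that also acts in receptor uptake, had a log2 difference of -1.55 with 4 tumour arrays at the floor, so the size of that difference depends on the floor. Syt17 (-1.15, with 2 Olig2 arrays at the floor), Syt12 (-1.07), Syt9 (-0.82) and Syt14 (-0.47) followed. Syt12 and Syt14 are members that do not bind calcium, and Syt9 is a further fast sensor.

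Syt11, which does not bind calcium and acts in membrane retrieval, read 10.03 to 11.16 (median 10.56) in tumours, against 10.02 to 11.05 (median 10.64) in non-tumour tissue. The groups overlapped almost fully on this probe set (log2 difference -0.07, SE 0.16, adjusted p = 0.733). Its 4 other probe sets had differences of -0.39 to -0.70, so the value depends on the probe set. With the mean of its probe sets, Syt11 was called lower (log2 difference -0.43, limma adjusted p = 0.000823). Syt13 (-0.52), Syt10 (-0.49) and Syt5 (-0.07) did not pass either. Syt8 was the only synaptotagmin called higher, after passing the filter through tumour arrays. It was at the floor on 5 of 6 non-tumour arrays and at 4.47 on the other, and ran from the floor to 6.68 (median 5.20) in tumours, so its log2 difference of 1.51 (SE 0.40, adjusted p = 0.00206) depends on the floor, and 14 of 21 tumour arrays lay above all non-tumour arrays.

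Among the VAMPs, which sit on the vesicle, the neuronal pair fell most. Vamp1, synaptobrevin of many hindbrain and spinal synapses, read 5.93, 6.03 and 5.26 in Math1 tumours, 6.44, 6.77 and 5.58 in Tlx3 tumours, 4.66 to 6.91 (median 5.64) in Olig2 tumours, 3.63 to 6.77 (median 6.07) in hGFAP tumours and 6.09 and 4.31 in Ptc1+/- tumours, against 8.97 to 9.95 (median 9.45) in non-tumour tissue. No tumour array came within the non-tumour range, and the signal was 12.9-fold lower (log2 difference -3.69, SE 0.33, adjusted p = 1.82e-10). Vamp2, the main synaptobrevin of the forebrain, was 6.97 to 8.90 (median 8.36) in tumours, against 9.54 to 10.69 (median 10.14) in non-tumour tissue, 3.46-fold lower (SE 0.20 on the log2 scale, adjusted p = 7.57e-09) and again without overlap.

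Of the 6 tested VAMPs, 4 fell and none rose, against 25.6% of all genes lower and 26.8% higher. Vamp8, an endosomal VAMP of secretory cells, fell by 1.19 and Vamp4, of the trans-Golgi network, by 0.39 (adjusted p = 0.027), a call that was lost under 6 of 41 alternatives. The more widely used Vamp7 (-0.60, adjusted p = 0.0764) and Vamp3 (0.10, adjusted p = 0.671) did not pass. The 2 synaptic VAMPs thus had the 2 lowest differences of their family.

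The target-membrane partners did not move together. Snap25, the neuronal SNAP-25 protein, averaged 10.14 ± 0.12 (SD, n = 3) in Math1 tumours and read 10.49, 10.52 and 9.97 in Tlx3 tumours, 8.22 to 10.83 (median 8.66) in Olig2 tumours, 8.98 to 10.74 (median 9.99) in hGFAP tumours and 8.54 and 8.93 in Ptc1+/- tumours, against 12.26 to 12.87 (median 12.63) in non-tumour tissue. Every tumour array was below every non-tumour array, and Snap25 was 7.57-fold lower (log2 difference -2.92, SE 0.27, adjusted p = 3.18e-10). Snap47, a widely expressed relative, fell by 1.40 without overlap. Snap23, the counterpart of Snap25 in non-neuronal cells, read 5.04 to 6.36 (median 5.73) in tumours, against 5.25 to 6.05 (median 5.55) in non-tumour tissue, and its difference of 0.04 (SE 0.20, adjusted p = 0.878) did not pass. Snap29, of endosomal and autophagic fusion, rose by 0.51 (adjusted p = 0.0195), but another of its probe sets had a difference of -0.14 and the call was lost under 4 alternatives, among them the mean of its probe sets.

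Stx1a, the neuronal plasma membrane syntaxin that pairs with Snap25 and Vamp2, stood opposite to its partners. It read 7.72, 7.85 and 8.03 in Math1 tumours, 7.67, 7.72 and 7.75 in Tlx3 tumours, 6.74 to 8.91 (median 7.94) in Olig2 tumours, 8.11 to 8.82 (median 8.51) in hGFAP tumours and 8.35 and 7.87 in Ptc1+/- tumours, against 5.30 to 6.91 (median 6.08) in non-tumour tissue. All but 1 Olig2 array lay above every non-tumour array. Stx1a was 3.72-fold higher in tumours (log2 difference 1.90, SE 0.22, adjusted p = 1.75e-08), with the lowest group difference in Tlx3 tumours (1.60) and the highest in hGFAP tumours (2.39). Its promoter window is the one with 3 GC boxes above.

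Of the 5 tested plasma membrane syntaxins, Stx1a rose, Stx3 fell and 3 did not pass. Over all genes 25.6% were lower and 26.8% higher, so these counts lie near the background. Stx3, a syntaxin of retinal ribbon synapses and of apical membranes, was 5.65 to 7.77 (median 6.20) in tumours, against 7.87 to 8.62 (median 8.41) in non-tumour tissue, without overlap. Its log2 difference was -2.07 (SE 0.22, adjusted p = 2.49e-09), and 2 more probe sets that passed gave -3.58 and -0.42. Stx2 (-0.36), Stx4a (-0.33) and Stx11 (-0.18), which serve secretion in other cells, did not pass.

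Among the 8 syntaxins of the endosome, Golgi apparatus and endoplasmic reticulum, 2 fell, 1 rose and 5 did not pass, against 25.6% of all genes lower and 26.8% higher. Stx6, of the trans-Golgi network and early endosome, read 9.64, 9.13 and 9.48 in Math1 tumours, 9.14, 9.46 and 9.59 in Tlx3 tumours, 8.46 to 9.83 (median 9.38) in Olig2 tumours, 8.86 to 9.98 (median 9.21) in hGFAP tumours and 9.05 and 8.20 in Ptc1+/- tumours, against 8.17 to 8.69 (median 8.27) in non-tumour tissue. On 19 of 21 tumour arrays it lay above all non-tumour arrays, and the log2 difference was 0.88 (SE 0.18, adjusted p = 0.000119). Without rescaling of the arrays the Stx6 difference was 0.53 (adjusted p = 0.185). Stx7, of the late endosome, fell by 0.51 (adjusted p = 0.000791), and Stx18, of the endoplasmic reticulum, fell by 0.44 (adjusted p = 0.0425). Stx18 lost its call under 15 of 41 alternatives, and its 5 probe sets ran from -0.44 to 0.04. The other 5, Stx16, Stx8, Stx17, Stx5a and Stx12, lay between -0.29 and 0.32.

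**Figure D2:**
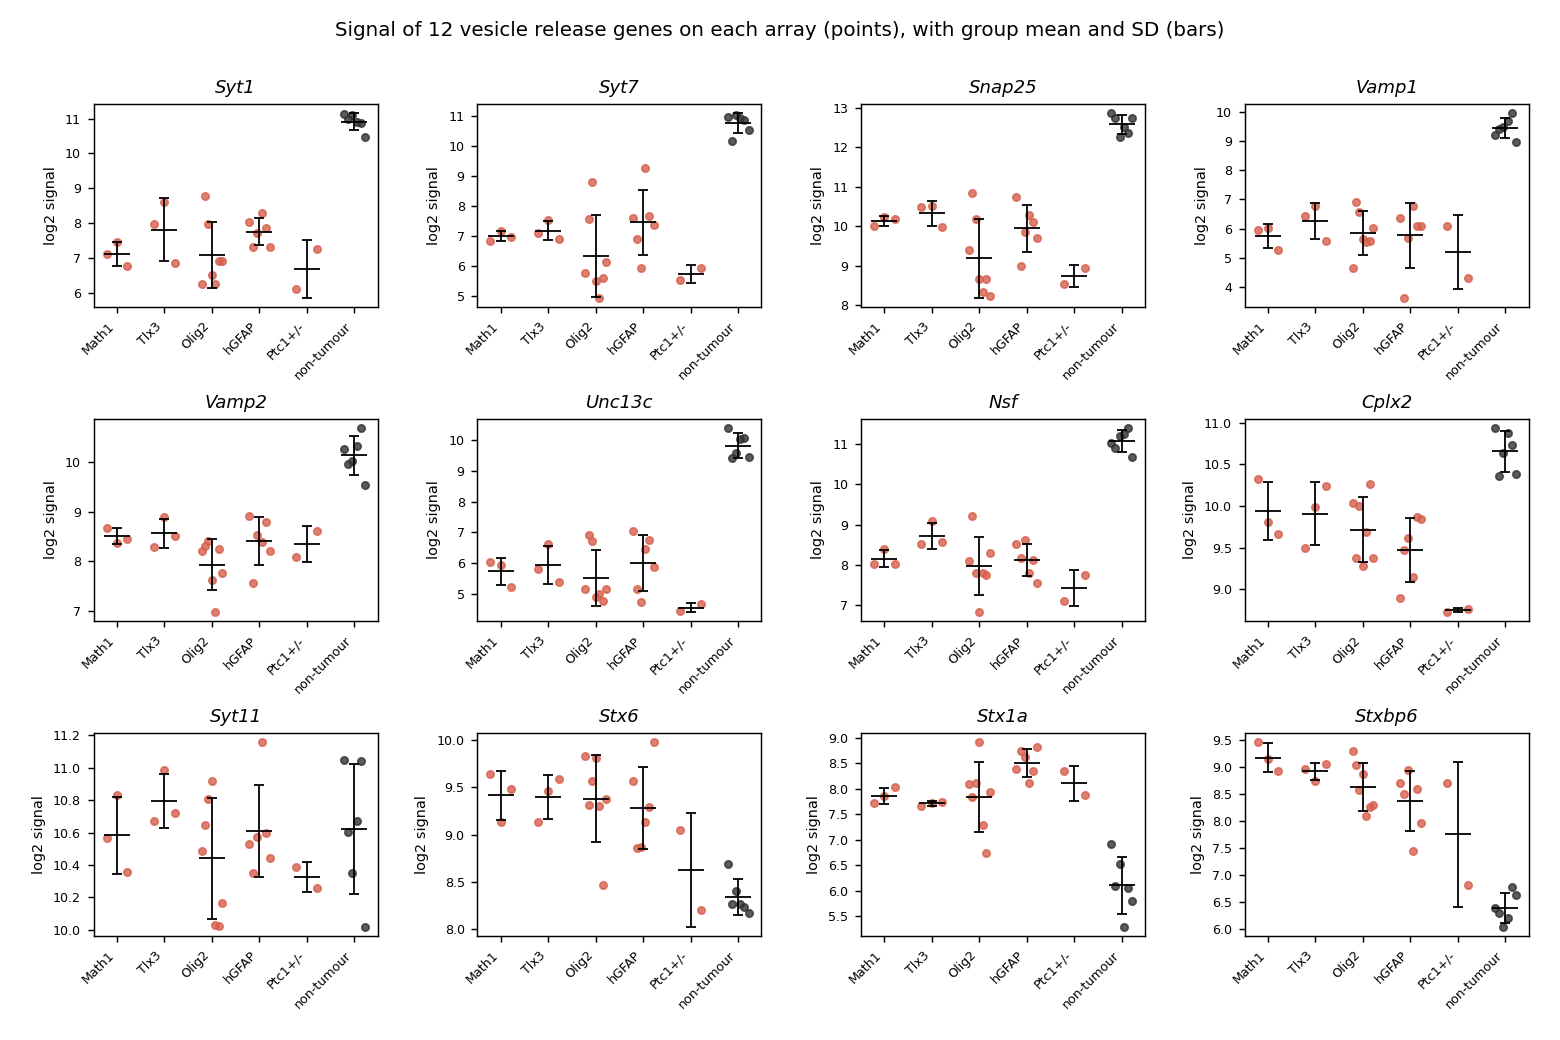
Log2 signal of 12 members on each array (points), with the group mean and SD (bars), by tumour group and non-tumour tissue. Syt1, Syt7, Snap25, Vamp1, Vamp2, Unc13c, Nsf and Cplx2 have every tumour array below every non-tumour array, Syt11 overlaps, and Stx6, Stx1a and Stxbp6 are higher in tumours.

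The regulators of the SNARE complex also split. Both tested complexins fell without overlap: Cplx1 by 1.59 (SE 0.17, adjusted p = 4.15e-09) and Cplx2 by 1.10 (SE 0.17, adjusted p = 1.92e-06). Cplx2 read 8.73 to 10.33 (median 9.67) in tumours, against 10.36 to 10.94 (median 10.69) in non-tumour tissue, which leaves a narrow gap between the groups. Nsf, the ATPase that recycles SNAREs in all membrane traffic, read 8.03, 8.39 and 8.03 in Math1 tumours, 8.51, 9.10 and 8.57 in Tlx3 tumours, 6.83 to 9.21 (median 7.81) in Olig2 tumours, 7.55 to 8.61 (median 8.14) in hGFAP tumours and 7.11 and 7.75 in Ptc1+/- tumours, against 10.67 to 11.41 (median 11.12) in non-tumour tissue. It was 7.98-fold lower (log2 difference -3.00, SE 0.21, adjusted p = 1.43e-12), also without overlap, although it serves fusion in every cell. Other Nsf probe sets that passed had differences of -2.40 and -0.65, so the size depends on the probe set.

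Stxbp6, or amisyn, has a VAMP-like domain without a membrane anchor and can bind syntaxin 1 and SNAP-25 in place of a VAMP. It read 9.45, 9.14 and 8.92 in Math1 tumours, 8.96, 8.74 and 9.05 in Tlx3 tumours, 8.09 to 9.29 (median 8.57) in Olig2 tumours, 7.45 to 8.95 (median 8.55) in hGFAP tumours and 8.69 and 6.81 in Ptc1+/- tumours, against 6.05 to 6.77 (median 6.34) in non-tumour tissue. All tumour arrays lay above all non-tumour arrays, the nearest being 1 Ptc1+/- tumour. Stxbp6 was 4.51-fold higher (log2 difference 2.17, SE 0.22, adjusted p = 1.5e-09). By group the difference ran from 2.78 in Math1 over 2.52 in Tlx3, 2.24 in Olig2 and 1.97 in hGFAP down to 1.36 in Ptc1+/- tumours.

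Of the 6 tested syntaxin binding proteins, 4 fell, Stxbp6 rose and Stxbp4 did not pass, against 25.6% of all genes lower and 26.8% higher. Stxbp5l, a tomosyn that holds syntaxin away from the vesicle, was 5.58 to 10.54 (median 7.40) in tumours, against 9.69 to 10.48 (median 10.14) in non-tumour tissue. It fell by 2.41 (SE 0.50, adjusted p = 0.000168), yet 1 hGFAP tumour array lay above all non-tumour arrays. The related tomosyn Stxbp5 fell by 1.07, with another of its probe sets at 0.28. The Munc18 proteins Stxbp3 (-0.93) and Stxbp2 (-0.74) fell as well, the second without a call when non-tumour replicate 3 or 4 was left out.

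At the active zone, Unc13c showed the lowest difference of all members. Unc13c, or Munc13-3, is a vesicle priming factor known chiefly from cerebellar granule neurons. It read 6.03, 5.93 and 5.20 in Math1 tumours, 5.81, 6.61 and 5.36 in Tlx3 tumours, 4.75 to 6.92 (median 5.13) in Olig2 tumours, 4.73 to 7.05 (median 6.17) in hGFAP tumours and 4.43 and 4.65 in Ptc1+/- tumours, against 9.43 to 10.41 (median 9.81) in non-tumour tissue. It was 19.5-fold lower (log2 difference -4.29, SE 0.32, adjusted p = 2.84e-12), without overlap. Its relatives differed from it in size: Unc13a, the main priming factor of excitatory synapses, fell by 0.83 (adjusted p = 0.00317), while Unc13b (-0.35) and Unc13d (-0.28), the form of blood cells, did not pass. The difference between family members was not tested.

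The RIM and Rab3 proteins, which tether vesicles to the active zone, mostly fell. Rims1 read 5.30 to 8.01 (median 6.86) in tumours, against 9.01 to 9.61 (median 9.20) in non-tumour tissue, and fell by 2.53 (SE 0.22, adjusted p = 1.04e-10). Rims2 fell by 2.29, Rims3 by 1.62 and Rab3a, the main Rab of synaptic vesicles, by 1.47, all without overlap. Rims4 had a difference of -0.40 (adjusted p = 0.121) on the probe set used and of -2.66 on its other probe set. Rab3c fell by 1.66 on the probe set used, but its 3 other probe sets that passed had differences of -0.07, 0.21 and 0.51, and with the mean of its probe sets the adjusted p was 0.154. Rab3d, known from exocrine and other secretory cells, rose by 1.00 (SE 0.17, adjusted p = 9.54e-06), with 6.17 to 7.40 (median 7.04) in tumours, against 5.73 to 6.36 (median 5.95) in non-tumour tissue, and its 3 other probe sets had differences of 0.89, 0.16 and -0.05. Its call was lost without rescaling.

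All 5 tested proteins of the synapsin and SV2 families fell, against 25.6% of all genes. Sv2a, a vesicle membrane protein and the binding site of the drug levetiracetam, read 5.79 to 8.59 (median 7.20) in tumours, against 9.61 to 10.42 (median 10.08) in non-tumour tissue, and was 7.3-fold lower (SE 0.27 on the log2 scale, adjusted p = 4.63e-10). Syn2 fell by 2.00, Syn1 by 1.51 and Sv2b by 1.34, all without overlap, and Syn3 by 0.80 (adjusted p = 0.0335), a call lost under 9 of 41 alternatives. The synapsins tie vesicles to the cytoskeleton in the reserve pool. Snap91, or AP180, is a clathrin adaptor that retrieves vesicle membrane after release. It read 7.06 to 9.31 (median 8.24) in tumours, against 10.44 to 11.05 (median 10.71) in non-tumour tissue, and fell by 2.44 (SE 0.24, adjusted p = 7.92e-10).

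Genes of the same pathway outside these families were read from 2 lists. Of 23 tested genes of synaptic vesicles and the active zone, 21 fell and 2 rose, against 25.6% and 26.8% of all genes. The 23 had a median log2 difference of -2.06. Slc17a7 and Slc32a1 stand in this list and also among the neuron markers above. The lowest 4 were Slc32a1 (-4.09), the vesicular transporter of GABA and glycine, Dnm1 (-3.68), the dynamin of vesicle retrieval, Slc17a7 (-3.42), the vesicular glutamate transporter of mature granule neurons, and Rph3a (-2.83), a Rab3 effector. Slc32a1 was at the floor on 3 Olig2 and both Ptc1+/- arrays, so the size of its difference depends on the floor. Its tumour group means (3.37 to 4.89, against 8.35 in non-tumour tissue) lay under the filter signal. Its fall may thus have leaned on the filter and is a description. Both that rose were at the floor on most non-tumour arrays, Doc2a on all 6 and Slc17a6 on 4, so both passed the filter through tumour arrays and their direction is a description. Slc17a6, the vesicular glutamate transporter of many young neurons, had group means of 8.55 to 9.91 in tumours, against 4.38 in non-tumour tissue. Doc2a, a calcium-binding relative of the synaptotagmins, had group means of 6.68 to 7.22 in tumours. The next highest were Erc2 (-0.73), an active zone scaffold, and Dnajc5 (-0.81), a vesicle chaperone, and both fell.

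The list of 16 other SNAREs and cofactors of endoplasmic reticulum, Golgi and endosome traffic showed 5 that fell, 3 that rose and 8 that did not pass, with a median of -0.05, against 25.6% of all genes lower and 26.8% higher in this comparison, so its counts lie near the background. Napg (-1.81), an Nsf attachment protein, was the lowest and Ykt6 (0.84), a SNARE of the Golgi apparatus, the highest. Vps45 (-1.11), Vti1b (-0.95) and Sec22b (-0.75) were the next lowest. Scfd2 (0.53), Gosr2 (0.42) and Bnip1 (0.22) were the next highest, the last of them without a call. The 2 lists were not tested against each other.

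Each tumour group was also set against the same 6 non-tumour arrays, which the 5 comparisons share. In Math1 tumours 31 members fell and 4 rose, against 18.1% and 19.3% of all genes. In Tlx3 tumours 31 fell and 4 rose, against 20.6% and 19.7% of all genes. Without rescaling 15 fell and 5 rose in Tlx3 tumours. The shares of all genes called in that fit are not given here, so this change cannot be set against them. In Olig2 tumours 41 fell and 6 rose, against 25% and 24.7% of all genes. In hGFAP tumours 32 fell and 6 rose, against 19.2% and 22.5% of all genes. In Ptc1+/- tumours, with 2 arrays, 35 fell and 4 rose, against 18.4% and 17.9% of all genes. The median member difference lay between -1.06 in Ptc1+/- and -0.73 in hGFAP tumours.

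Mature granule neuron markers summed to 1910 to 2680 in Ptc1+/-, 2010 to 6380 in Olig2, 3010 to 4160 in Math1, 3470 to 5680 in Tlx3 and 3190 to 7080 in hGFAP tumours, against 18600 to 28500 in non-tumour tissue. Of these 9 markers all were called lower in each group but hGFAP, where 8 were. Purkinje markers summed to 174 to 551 in Ptc1+/-, 266 to 3140 in Olig2, 1550 to 1710 in Math1, 1240 to 3510 in Tlx3 and 362 to 3250 in hGFAP tumours, against 21100 to 28700 in non-tumour tissue, and all 7 were called lower in each group. Both neuron types thus read lower in every tumour group, and their part in these counts was not tested.

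Some values were spread by group. Unc13c had differences of -5.29 in Ptc1+/-, -4.32 in Olig2, -4.11 in Math1, -3.90 in Tlx3 and -3.83 in hGFAP tumours. Stx6 was called in all 4 SmoM2 groups (0.94 to 1.08) and had a difference of 0.28 (adjusted p = 0.501) in Ptc1+/- tumours. Stxbp4, which binds syntaxin 4, had a difference of -2.05 (adjusted p = 0.019) in Ptc1+/- tumours, where 1 of the 2 arrays was at the floor, and of -0.26 to -0.11 in the SmoM2 groups. Syt5, of dense-core vesicles, had -1.50 (adjusted p = 0.0383) in Ptc1+/- tumours and -0.58 to 0.78 in the SmoM2 groups. The tests of these differences between tumour groups follow.

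**Figure D3:**
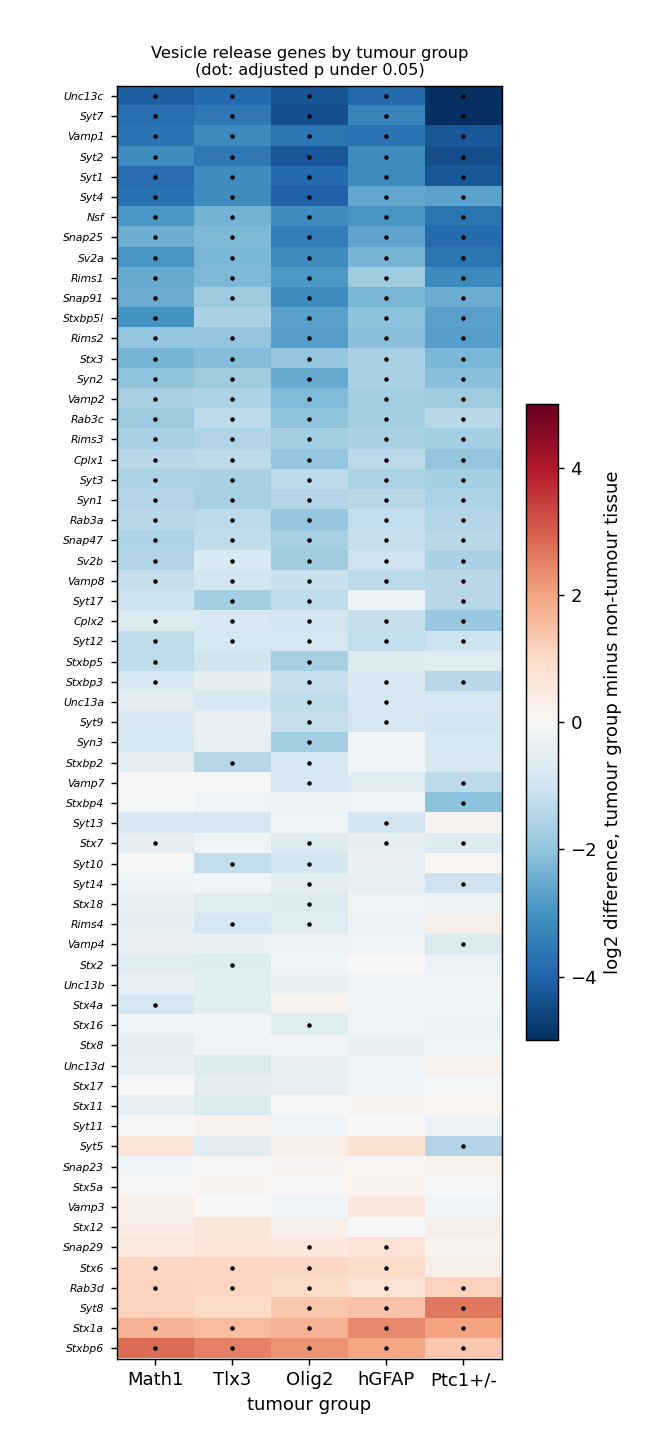
Log2 difference of the 63 tested members (rows) in each tumour group minus non-tumour tissue (columns), with a dot where the adjusted p was under 0.05. Unc13c is blue in all 5 columns (-3.83 to -5.29), Stxbp6 is red in all 5 (1.36 to 2.78), and the middle rows are pale.

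Tumours of the broader drivers hGFAP and Olig2 were then compared with those of the granule lineage drivers Math1 and Tlx3, the question being whether the cell in which the pathway is switched on leaves a trace in the tumour. No member was called. Over all genes, 0.118% were called higher and 0.14% lower. At an unadjusted p under 0.05 limma gave 8 members (12.7%, against 15.5% of all genes). The lowest adjusted p was that of Stx4a, a plasma membrane syntaxin of general secretion. Stx4a read 6.19 to 7.70 (median 6.88) in Olig2 tumours and 6.16 to 7.28 (median 6.50) in hGFAP tumours, against 5.70, 5.58 and 6.64 in Math1 tumours and 6.54, 6.13 and 5.98 in Tlx3 tumours. The groups overlapped, and the log2 difference was 0.70 (SE 0.21, adjusted p = 0.135). With array weights 2 members, Stx2 and Stx4a, were called. Without rescaling of the arrays 35 of 64 members tested were called, all lower, but so were 50.7% of all genes, whose median moved to -0.76.

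The main fusion genes differed little between these tumours, with wide errors. The log2 difference, broader drivers minus granule lineage drivers, was -0.05 (SE 0.29) for Syt1, -0.19 (SE 0.40) for Syt7, -0.07 (SE 0.33) for Unc13c, -0.37 (SE 0.20) for Vamp2 and 0.38 (SE 0.23) for Stx1a. Snap25 (-0.67, SE 0.28, adjusted p = 0.26) and Stxbp6 (-0.55, SE 0.23, adjusted p = 0.254) had lower values in the broader groups without passing. A p that misses the threshold does not show that the tumours were alike.

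Among the 4 SmoM2 groups the F statistic called no member, while 0.946% of all genes were called. The unadjusted p was under 0.05 for 16 members (25.4%, against 21.1% of all genes). Syn3, a synapsin of early neuronal development, had the lowest adjusted p, 0.0721. It read 4.67 to 6.46 (median 5.13) in Olig2 tumours, 5.56 to 7.62 (median 7.40) in hGFAP tumours, 5.13, 6.76 and 6.90 in Math1 tumours and 7.35, 7.14 and 5.78 in Tlx3 tumours. Leaving out single arrays moved this count: it was 4 without Olig2 replicate 2, 5 without Olig2 replicate 3, 1 without Olig2 replicate 4 and 2 without hGFAP replicate 2. Syn3 was among the members called in each of these. The shares of all genes called in these fits are not given here.

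Ptc1+/- tumours were set against the 4 SmoM2 groups, that is, loss of a Patched copy against activated Smoothened. No member was called, while 0.0444% of all genes were called higher and 0.503% lower. At an unadjusted p under 0.05 limma gave 14 members (22.2%, against 11.7% of all genes). Cplx2 had the lowest adjusted p. It read 8.73 and 8.77 in Ptc1+/- tumours, against 8.89 to 10.33 (median 9.69) in SmoM2 tumours, so both Ptc1+/- arrays lay below all 19 others. The log2 difference was -1.01 (SE 0.26, adjusted p = 0.0736).

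Cell type markers differed in the same comparison. Aqp4, the water channel of astrocytes, was called lower (-2.74, adjusted p = 1.21e-05), as were the myelin genes Mag (-1.55, adjusted p = 0.0397) and Cnp (-1.55, adjusted p = 0.0428), so that 1 of 7 astrocyte and 2 of 6 oligodendrocyte markers passed. None of 7 Purkinje (median -1.98) or 9 granule neuron markers (median -0.90) did. Purkinje markers summed to 174 and 551 in Ptc1+/- tumours, against 266 to 3510 in SmoM2 tumours, and granule neuron markers to 1910 and 2680 in Ptc1+/- tumours, against 2010 to 7080 in SmoM2 tumours. Oligodendrocyte markers summed to 353 and 807 in Ptc1+/- tumours, against a median of 1830 and at most 5180 in SmoM2 tumours. Astrocyte markers summed to 2980 and 6250 in Ptc1+/- tumours, against 4860 to 12800 in SmoM2 tumours. The part of these markers in the member differences was not tested.

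Syt5 was also below all SmoM2 tumours, at 3.37 (the floor) and 3.74 in Ptc1+/- tumours, against 4.22 to 6.89 (median 5.36) in SmoM2 tumours (log2 difference -1.78, SE 0.52, adjusted p = 0.136). It was called under quantile normalization. The difference of Stxbp6 was -1.02 (SE 0.35, adjusted p = 0.212) and that of Stxbp4 was -1.88 (SE 0.63, adjusted p = 0.199). Both were called without Ptc1+/- replicate 1, which leaves a lone array assumed to vary like the other groups. That array, replicate 2, had a trimmed mean of 47.27 before scaling, among the dimmest, and it held the lowest Stxbp6 and Stxbp4 signals of all tumours.

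Within tumour groups the same members varied from array to array. The SD within groups was widest for Stxbp5l (1.37), Syt4 (1.20), Syt2 (1.14), Stxbp4 (1.06) and Syt7 (1.04), against 0.29, 0.36, 0.38, 0.30 and 0.34 for these genes in non-tumour tissue. Olig2 tumours showed it most plainly. Syt7 read 7.57 on replicate 2 and 8.79 on replicate 3, and 4.95 to 6.15 on the other 5. Syt4 read 7.84 and 8.21 on replicates 2 and 3, and 4.60 to 6.47 on the other 5.

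The sums of mature granule neuron, Purkinje and GABAergic interneuron markers, like Syt7 and Syt4, were highest on Olig2 replicates 2 and 3. Stxbp5l, the most spread, was instead highest on Olig2 replicates 3 (9.73) and 4 (9.16) and read 7.40 on replicate 2. Olig2 replicate 4 had a log2 3 prime to 5 prime ratio of 1.784 and a Purkinje marker sum of 266. In hGFAP tumours Stxbp5l was highest on replicates 4 (10.54) and 6 (9.41), with ratios of 1.881 and 1.667. Migrating young neuron markers summed to 18000 on Olig2 replicate 4, 14100 on replicate 3 and 8730 on replicate 2. On the remaining Olig2 arrays they summed to 8470 to 13100. Their sums were 18400 and 16800 on hGFAP replicates 4 and 6, and 12000 to 15300 on the remaining hGFAP arrays. The Purkinje marker sum was 3140 on Olig2 replicate 2 and 2970 on replicate 3, and 266 to 700 on the other 5. Mature granule neuron markers summed to 4730 and 6380 on replicates 2 and 3, and to 2010 to 4340 on the other 5. Array quality differed too, since replicate 3 was dim with a log2 3 prime to 5 prime ratio of 1.715, while replicate 2 had a trimmed mean of 205.45 and a ratio of 0.134. In hGFAP tumours Syt7 was highest on replicate 4 (9.25), where the granule neuron sum was the highest of all tumours at 7080, the array was dim and the ratio was 1.881. Whether cell make-up or array quality had a part in this spread was not tested.

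**Figure D4:**
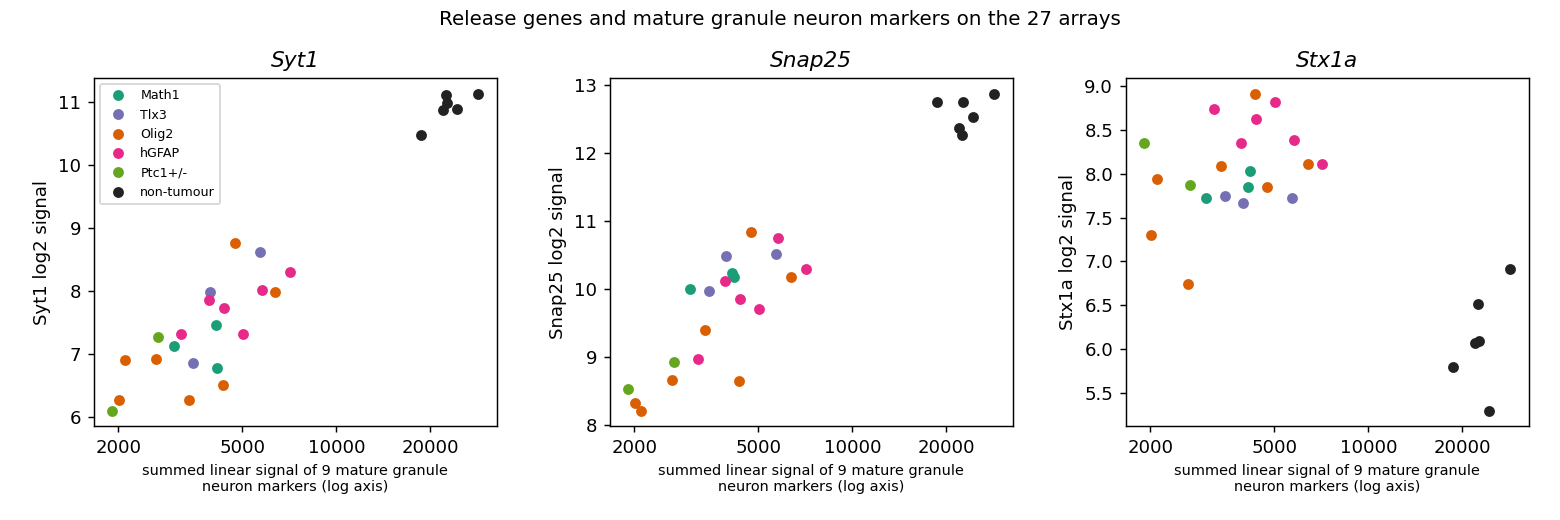
Log2 signal of Syt1, Snap25 and Stx1a (vertical) against the summed linear signal of 9 mature granule neuron markers (horizontal, log axis) on each of the 27 arrays (points, coloured by group). Tumours lie at sums of 1910 to 7080, with Syt1 at 6.10 to 8.77, and non-tumour tissue at 18600 to 28500, with Syt1 at 10.48 to 11.13, while Stx1a runs the other way.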

How the data were processed

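Labelled cRNA from 27 samples was hybridised to Affymetrix arrays. The authors deposited a linear signal intensity for each of 45101 probe sets, which the submitters' processing notes credit to MAS5, and its scaling target is not given in the sources used here. Each array was rescaled to a common 2% trimmed mean of 123.61 (deposited means 42.58 to 205.96), floored at the 20th percentile of the table (10.3) and taken to log2. Probe sets above the table's median (45.6) on at least 3 arrays were kept (30107), and the one with the highest mean stood for its gene. In the platform annotation 34958 probe sets named 1 gene and 932 several, and 9211 were not listed. The 64 control probe sets were left out.

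Groups were compared with limma 3.58.1 in R 4.3.3, with a mean per group (21 residual degrees of freedom), empirical Bayes moderation with trend and robust fit, and Benjamini-Hochberg adjustment over all 13527 genes, two-sided except for the F statistic. Calls were made at an adjusted p under 0.05. Equal weight was given to the groups on each side of a contrast. The fit was tested on simulated data. Named with array values were the 10 lowest and up to 10 highest called members with all group means on the same side, Nsf, members with probe sets of opposite sign, and the leading members between tumours. The members, role lists and marker lists were chosen with earlier results of these data known. Alternatives changed the scaling, floor, filter, probe set choice, moderation, array weights and arrays used, or added a replicate block, and counted 12 Rab30 to Rab39 genes as members. Promoter windows came from RefSeq, build GRCm38.p6. No detection calls were used, so low signals can be background.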

Additional observations from a re-analysis of the deposited data

Results flagged for a closer look

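Among 60 groups of 4 to 10 arrays, over 20 members with array values, 5 arrays stood apart from the rest of their group by Dixon's criterion, which chance gives in about 1 in 20 groups. Vamp1 was at 3.63 on hGFAP replicate 2, with the nearest hGFAP tumour at 5.68. Stx6 was at 8.46 on Olig2 replicate 6, with the nearest at 9.30. Stxbp5 was at the floor of 3.37 on Olig2 replicate 3, with the nearest at 5.56. In non-tumour tissue, Syt8 was at 4.47 on replicate 2 while the other 5 were at the floor of 3.37, and Rab3c was at 8.51 on replicate 6, with the nearest at 9.20. These values are given without an explanation, and none of the arrays was left out of the results above.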

How the results depend on the processing

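Of the 44 members called in all tumours, 36 kept their call under every alternative that gave them a value (40 or 41 each), and 8 (Rab3c, Rab3d, Snap29, Stx18, Stx6, Stxbp2, Syn3 and Vamp4) lost it under at least 1. None of the 44 changed sign. Of the 19 members not called, Rims4, Syt10, Stx12, Syt13, Unc13b, Vamp7, Stx2, Stx4a, Stx8 and Syt11 gained a call under 1 to 4 alternatives. The number called ranged from 40 to 45 when each array was left out in turn, and was 52 with Rab30 to Rab39 counted as members, an alternative chosen after seeing the data. Leave-one-out ranges were 27 to 41 for Ptc1+/-, 37 to 40 for hGFAP, 44 to 48 for Olig2, 28 to 36 for Tlx3 and 30 to 36 for Math1 tumours. Between tumours they were 0 to 0 for the broader (hGFAP, Olig2) against the granule lineage drivers (Math1, Tlx3), 0 to 2 for Ptc1+/- against SmoM2 tumours and 0 to 5 among the 4 SmoM2 groups. Without rescaling, 20 members were called in Tlx3 tumours, 35 between the broader and the granule lineage drivers (beside 50.7% of all genes lower), 10 between Ptc1+/- and SmoM2 tumours and 15 among the SmoM2 groups, where brightness was left in the values and the median of all genes in all tumours was -0.34. Ptc1+/- against SmoM2 tumours gave 1 member with quantile normalization (Syt5), 1 without a filter (Stx19) and 1 without the dim arrays (Sv2a). Array weights gave 2 members between the broader and the granule lineage drivers and 9 among the SmoM2 groups. Among the SmoM2 groups the mean of probe sets gave 1 (Sv2b) and leaving out arrays with a high 3 prime to 5 prime ratio gave 5. Apart from the 50.7%, the shares of all genes called under these alternatives are not given, so these counts cannot be set against them. The cause of these changes was not tested. With the replicate block, 44 members were called in all tumours, 39 in Ptc1+/-, 38 in hGFAP, 43 in Olig2, 36 in Tlx3 and 37 in Math1 tumours. Arrays with the same replicate number had correlations of their deviations from -0.34 to 0.28, and 19 of 49 such pairs were over 0.1. Arrays of different number were not compared, so this range cannot show whether the numbers pair the samples. Signals near the floor of 3.37, as for Syt8, Syt3 and the 8 members below the filter, limit what can be read of their differences.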
